A study of Mus musculus with 4 samples.

Results

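Primitive endoderm, mesendoderm and neuroectoderm genes, 34 in all, were named as a module of lineage specification, and 30 of them were found by symbol among the 19840 genes of the deposited table. Cer1, Lhx1, Hes5 and Fabp7 were not analysed here. The members were 10 genes of the primitive endoderm, 10 of mesendoderm and mesoderm and 10 of neuroectoderm. Of the 30, 17 lay below a mean of 10 normalized reads over the 4 libraries, against 30.8% of all genes in the table.

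The cells were naive mouse embryonic stem cells, held in the ground state by culture in 2i/LIF, a mix of kinase inhibitors and leukaemia inhibitory factor. They carried a lentiviral hairpin, either the control shCtrl or shLincenc1 against the long noncoding RNA Lncenc1, and had been under puromycin for 2 days, with 2 libraries of total RNA in each group. The protocols name the lines E14TG2a and R1 and 2 hairpins per target, and no label says which line or hairpin a library used, or whether the libraries of a group were separate cultures. The p-values therefore rest on differences between libraries whose source, technical or biological, is unknown.

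In the embryo, naive epiblast sits beside primitive endoderm, the extraembryonic layer that FGF signalling through MAP kinase induces and that GATA and SOX factors specify. Epiblast later yields mesendoderm at the primitive streak, under WNT and NODAL signals, and neuroectoderm, where these signals are blocked. In stem cells kept in 2i/LIF the genes that define these layers are known to be held at low levels.

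The table does not say which group was the numerator, so groups are named by their Lncenc1 level, the libraries being H1 and H2 in the Lncenc1-high group and L1 and L2 in the Lncenc1-low group. Lncenc1 itself stood at 6400 and 7250 normalized reads in H1 and H2 and at 2126 and 2121 in L1 and L2. Since these levels named the groups, they do not check the labels. Reads per library, recovered from the deposited means, came to 24594591 in H1 and to between 9904709 and 10329235 in the other libraries, without the 56 genes whose reads were not recovered. The 10 naive stem cell markers had means from 765 to 18694 normalized reads, summed to 84665 and 80653 in H1 and H2 and to 71179 and 67547 in L1 and L2, and 0 of them passed the DESeq2 test between the groups. All 10 had a positive fold change in the authors' deposited table, with a median of 0.30, and 3 of 10 had an unadjusted p under 0.05, against 8.82% of tested genes. Of the 8 fibroblast markers, which feeder cells would bring, 5 had a row, and these summed to 161 normalized reads in H1, 137 in H2, 375 in L1 and 222 in L2, with Col1a1 and Col3a1 under 5 reads on average. Of the 9 trophoblast markers 8 had a row, with sums of 838 and 769 in H1 and H2 and of 986 and 1409 in L1 and L2, and with Gata3 and Hand1 under 5 reads on average. The 7 parietal endoderm markers summed to 5166 and 6063 in H1 and H2 and to 4438 and 4228 in L1 and L2. DESeq2 in the authors' deposited table called 0 of the 3 fibroblast, 6 trophoblast and 5 parietal endoderm markers it tested, with 1, 2 and 0 at an unadjusted p under 0.05.

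No member of the module passed the test between the groups. By DESeq2 in the authors' deposited table, 0 of the 14 members with an adjusted p were called at an adjusted p under 0.05, against 1.53% of all 14070 genes with one (0.505% higher in the Lncenc1-high and 1.02% in the Lncenc1-low group). At an unadjusted p under 0.05 there were also 0 of 30 members, against 6.58% of all genes and 8.82% of those with an adjusted p. Limma voom called 0 members as well, and 5 of 14009 genes in all. In bulk RNA, fewer cells of a lineage and less RNA per cell cannot be told apart. The smallest adjusted p was that of Kdr, at 0.586 in DESeq2 of the authors' deposited table. In 6 of the 13 members with a mean of at least 10 reads the groups did not overlap, close to the 41.4% of all genes at such means. Gata4, Hnf4a and Gsc were higher in both H libraries and Dab2, Nes and Map2 in both L libraries, 3 of 13 each way, against 20.7% of all genes each way.

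**Figure D1:**
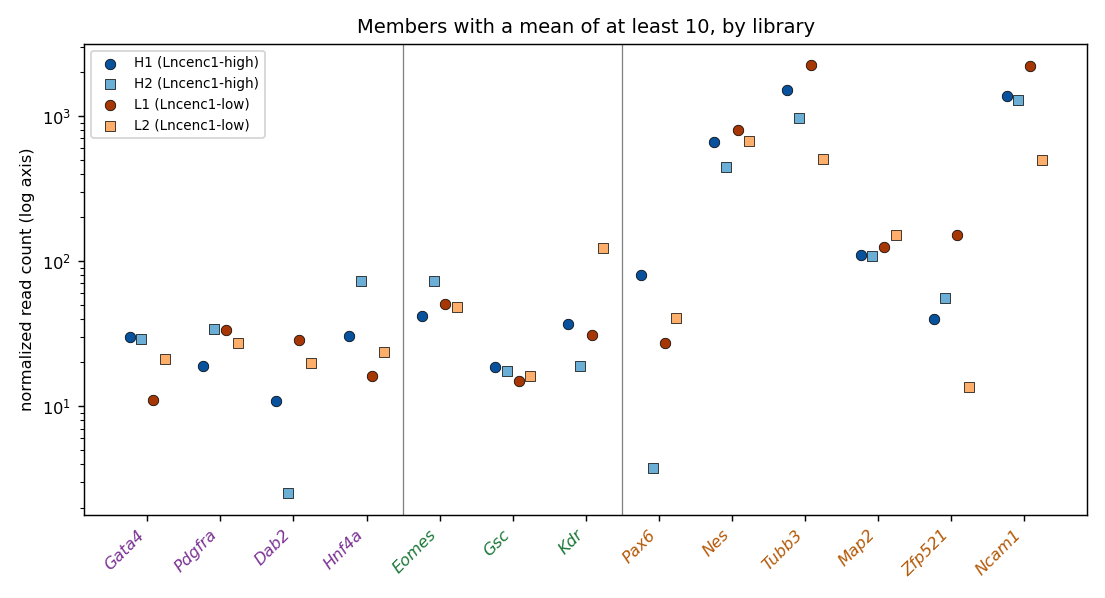
Normalized read counts of the 13 members with a mean of at least 10, on a log axis, 1 point per library, dark and light blue for H1 and H2, brown and orange for L1 and L2. Tubb3, Ncam1 and Zfp521 were high in L1 and low in L2, Pax6 was at 3.76 in H2, and Kdr was highest in L2.

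Levels differed far more between members than between groups. Per kilobase of the longest annotated transcript, Tubb3 was the highest at 699 normalized reads, followed by Ncam1 at 205, Nes at 105, Map2 at 19.8 and Eomes at 14.96. Gsc, Zfp521, Kdr, Pax6, Hnf4a and Gata4 followed at 13.2 down to 6.67 reads per kilobase. The ranges over the 4 libraries overlapped for each neighbouring pair in this order except Nes and Map2. The order also rests on transcript length: with the shortest transcript Ncam1 came first, and 3 of 30 members kept their rank. The lowest members, Dcx and Pax3, were at 0.102 and 0.193 reads per kilobase. For scale, the pluripotency factors Sox2 and Nanog stood at 3252 and 4108 reads per kilobase.

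The promoters of 4 members are shown for the contrast in CpG content, a feature of promoters that Polycomb complexes hold in a poised state in stem cells. Each is the RefSeq window of GRCm38.p6 from 250 bases before to 50 after the start, 5′ to 3′ on the gene's strand, with each CG in capitals. Tubb3 and Nes are the neuroectoderm genes of neurons and of their progenitors, Kdr is the mesodermal receptor that was highest in L2, and Hnf4a is an endoderm gene (the first of its 2 starts).
Tubb3 (chr8:123411303-123411602, plus strand): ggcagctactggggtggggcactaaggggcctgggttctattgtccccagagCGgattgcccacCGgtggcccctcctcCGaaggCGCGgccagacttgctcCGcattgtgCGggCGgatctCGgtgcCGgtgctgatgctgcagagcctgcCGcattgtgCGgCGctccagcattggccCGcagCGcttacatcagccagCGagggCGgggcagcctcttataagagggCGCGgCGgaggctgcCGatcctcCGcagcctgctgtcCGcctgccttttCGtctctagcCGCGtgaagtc
Nes (chr3:87970843-87971142, plus strand): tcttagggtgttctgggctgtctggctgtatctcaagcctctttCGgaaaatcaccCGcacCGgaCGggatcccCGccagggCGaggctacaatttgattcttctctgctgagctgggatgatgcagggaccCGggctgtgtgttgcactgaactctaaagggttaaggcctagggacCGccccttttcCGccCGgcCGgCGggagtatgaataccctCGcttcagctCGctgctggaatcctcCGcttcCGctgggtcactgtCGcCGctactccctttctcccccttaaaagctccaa
Kdr (chr5:75978406-75978705, minus strand): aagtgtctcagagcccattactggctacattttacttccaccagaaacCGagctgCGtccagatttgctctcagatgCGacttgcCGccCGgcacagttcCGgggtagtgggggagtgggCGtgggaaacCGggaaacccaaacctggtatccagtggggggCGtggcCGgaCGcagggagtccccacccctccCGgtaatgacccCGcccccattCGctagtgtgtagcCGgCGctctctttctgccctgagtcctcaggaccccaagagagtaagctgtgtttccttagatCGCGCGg
Hnf4a (chr2:163506607-163506906, plus strand): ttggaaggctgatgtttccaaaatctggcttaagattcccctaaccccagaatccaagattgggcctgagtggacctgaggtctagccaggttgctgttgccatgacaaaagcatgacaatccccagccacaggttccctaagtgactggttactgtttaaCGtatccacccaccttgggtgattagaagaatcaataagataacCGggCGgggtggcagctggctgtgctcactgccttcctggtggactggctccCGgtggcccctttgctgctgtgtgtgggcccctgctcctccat

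The Tubb3 window held 26 CG, those of Kdr and Nes 19 and 18, and that of Hnf4a 4. Of the 30 members 20 had an entry in the promoter table. Taking the first window of each, 13 of 20 held at least 10 CG, against 43.5% of all 32851 windows. These 13 were 6 of 7 neuroectoderm, 6 of 8 mesendoderm and mesoderm and 1 of 5 primitive endoderm members. The choice of window matters for the last class, as Dab2 held 2 CG in its first window and 19 in its second. Over all 26 windows of the members, 17 held at least 10 CG. By first windows, 6 of the 10 members below a mean of 10 reads held that many. Among the other 10 members 7 did, so members below and above that mean differed by 1 window. The motif TATAAA, sought on both strands, was in 3 of the 20 windows and in 13.6% of all windows, and CCAAT was in 10 of the 20 and in 37.4% of all. These are matches of letters, not sites.

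Primitive endoderm genes were low in all 4 libraries, and the measurable members did not move one way. The zinc finger factor Gata4, which with Gata6 drives this lineage, had 29.8 and 28.9 normalized reads in H1 and H2 and 11.1 and 21.0 in L1 and L2. Its groups did not overlap, and the authors' deposited table gives a log2 fold change of 0.87 ± 0.91 (SE), Lncenc1-high over Lncenc1-low, with a DESeq2 adjusted p of 0.97. Hnf4a, the nuclear receptor of visceral endoderm, was at 30.3 and 72.8 in H1 and H2 and at 16.0 and 23.5 in L1 and L2. It too was higher in both H libraries, at 1.37 ± 0.79 (SE) in the authors' deposited table (DESeq2 adjusted p = 0.691). H2 stood well above H1 here, and refits without H2 and without H1 gave 0.62 and 1.88.

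Dab2, an endocytic adaptor whose loss disorganizes the endoderm layer, went the other way. It had 10.8 and 2.51 normalized reads in H1 and H2 and 28.3 and 19.8 in L1 and L2, so the L libraries lay above the H libraries. The authors' deposited table gives -1.79 ± 1.16 (SE) with a DESeq2 adjusted p of 0.774, and the H2 value rested on 2 reads. Refits without H2 and without H1 gave -1.16 and -3.26. Pdgfra, the receptor used to sort primitive endoderm, had 19.0 in H1, 33.9 in H2, 33.3 in L1 and 27.2 in L2, with overlapping groups (-0.21 ± 0.82, SE, in the authors' deposited table).

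The 6 other primitive endoderm genes lay below a mean of 10. Gata6 had 5 reads in H1, 0 in H2, 2 in L1 and 5 in L2. The SOX factor Sox17 had 1, 3, 6 and 2 reads in H1, H2, L1 and L2, and Sox7 had 3, 0, 4 and 0. The vitamin B12 receptor pair of visceral endoderm, Cubn and Amn, had 1, 2, 6 and 2 reads and 12, 1, 2 and 10 reads in the same order. The forkhead factor Foxq1 had 7, 3, 2 and 0. No library held more than 12 reads of any of these genes. The median over all 10 members was -1.12 in the authors' deposited table and 0.33 over the 4 with a mean of at least 10, beside -0.04 and -0.00 over all genes and all genes at such means. The sign of that median thus turned with the low genes, whose standard errors in the authors' deposited table were 1.85 to 3.65.

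**Figure D2:**
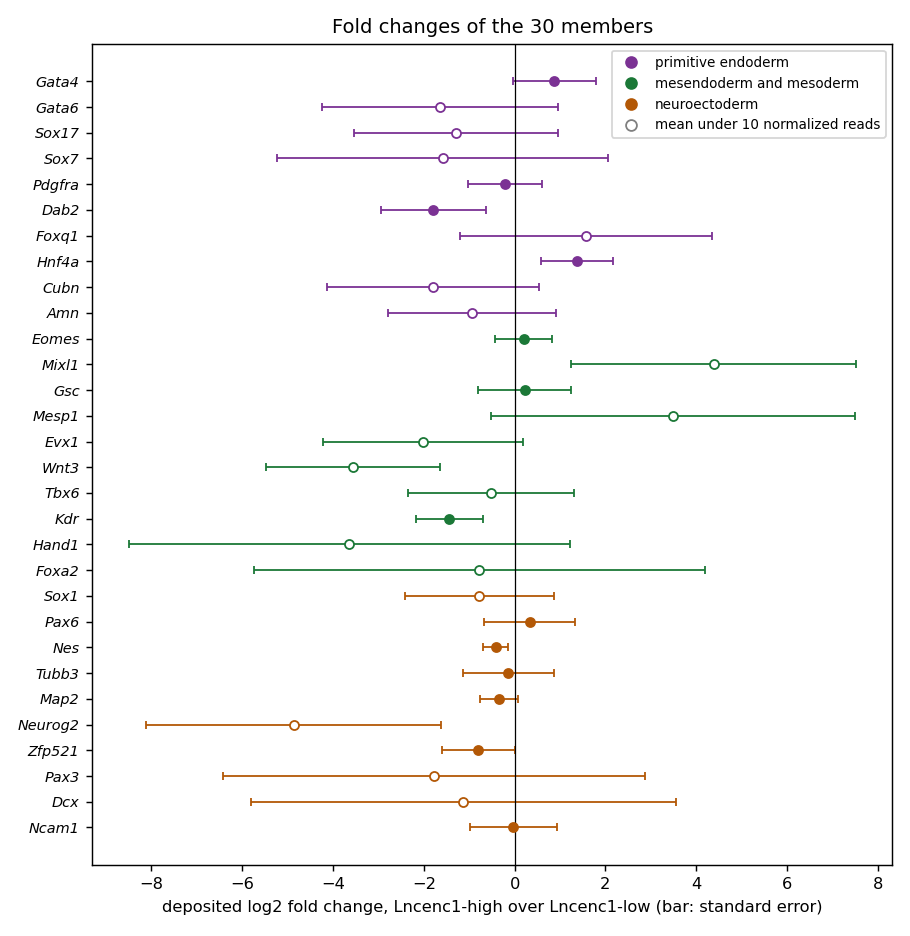
Deposited log2 fold changes of the 30 members, Lncenc1-high over Lncenc1-low, with standard errors as bars, coloured by class, open where the mean was under 10 normalized reads. The open points have standard errors from 1.64 to 4.97, and the filled ones lie between -1.79 and 1.37.

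Mesendoderm and mesoderm genes were mostly low as well, and 0 of the 3 tested were called. Eomes, a T-box factor of the early streak that is also used by trophoblast, had 41.6 and 72.8 normalized reads in H1 and H2 and 50.5 and 48.2 in L1 and L2. The L libraries lay between the H libraries, and the authors' deposited table gives 0.20 ± 0.62 (SE). Gsc, a homeobox gene of the organizer, was the most even member, with 18.5 and 17.6 in H1 and H2 and 14.8 and 16.1 in L1 and L2. Its H libraries lay just above its L libraries, at 0.23 ± 1.03 (SE) in the authors' deposited table.

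Kdr, the VEGF receptor of early mesoderm and blood vessels, rested on 1 library. It had 36.96 and 18.8 normalized reads in H1 and H2, 30.8 in L1 and 122 in L2. L1 lay between the H libraries, while L2 was 3.97-fold above L1 (95% counting interval 2.54 to 6.43, exact binomial). The authors' deposited table gives Kdr -1.44 ± 0.75 (SE), and a refit without L2 gave -0.12. L2 also had the highest summed trophoblast markers (1409), mainly through Krt8, with 577 in L2 and 72.7 in L1. Tfap2c, also a large part of that sum, was lower in L2 (670) than in L1 (810). The part of these markers in the Kdr level was not tested.

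Of the other members, Wnt3, the ligand that starts the primitive streak, had 0 and 2 reads in H1 and H2 and 8 and 12 in L1 and L2. The authors' deposited table gives it no adjusted p and an unadjusted DESeq2 p of 0.0638. The log2 fold change of Wnt3 there is -3.56 ± 1.92 (SE), and its H side rested on 2 reads. With reads pooled by group, Wnt3 was 16.9-fold higher in the Lncenc1-low group (95% interval 4.11 to 149, exact binomial). That interval covers counting error only, and Wnt3 was the only member below a mean of 10 given one. The homeobox gene Mixl1, a streak gene, showed the opposite, with 4 and 6 reads in H1 and H2 and 0 in both L libraries. With the Lncenc1-low group set to a floor of 3 reads, the Lncenc1-high group was 1.97-fold higher. Mesp1, of cardiac and head mesoderm, had 5 and 2 reads in H1 and H2 and 0 in L1 and L2. With the same floor it was 1.38-fold higher. These ratios leave out the counting error of the 10 and 7 reads, so they are not lower limits. The unadjusted DESeq2 p was 0.163 for Mixl1 and 0.385 for Mesp1 in the authors' deposited table. The genes with more reads in 1 group were thus not of 1 direction. Evx1 had 6, 0, 4 and 7 reads in H1, H2, L1 and L2, and Tbx6, a factor of paraxial mesoderm, had 5, 5, 2 and 8. Hand1 had 3 reads, all in L1, and Foxa2, of definitive endoderm and node, had 1 in H1 and 1 in L1. The median of the 10 was -0.65 in the authors' deposited table, -0.52 with the genes at 0 in a group taken at that floor, and 0.20 over the 3 with a mean of at least 10.

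Neuroectoderm held the most abundant members, and in several of them the libraries of a group differed more than the groups did. Tubb3, the neuronal beta-tubulin, had 1516 and 967 normalized reads in H1 and H2, 2230 in L1 and 507 in L2. Ncam1, the neural cell adhesion molecule, had 1376 and 1292 in H1 and H2, 2214 in L1 and 501 in L2. Zfp521, a zinc finger protein that promotes neural fate in stem cells, had 40.04 and 55.2 in H1 and H2, 152 in L1 and 13.6 in L2. In all 3 genes L1 was the highest library and L2 the lowest, with H1 and H2 between them.

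The group means of Ncam1 and Tubb3 nearly matched, while those of Zfp521 were 47.6 ± 10.7 (SD, n = 2) over H1 and H2 and 82.6 ± 97.6 (SD, n = 2) over L1 and L2. Ncam1 averaged 1334 ± 59.2 (SD, n = 2) over H1 and H2, and 1358 ± 1212 (SD, n = 2) over L1 and L2. Tubb3 averaged 1242 ± 388 (SD, n = 2) over H1 and H2 and 1369 ± 1219 (SD, n = 2) over L1 and L2. The authors' deposited table gives log2 fold changes of -0.03 ± 0.96 (SE) for Ncam1, -0.14 ± 1.00 (SE) for Tubb3 and -0.80 ± 0.81 (SE) for Zfp521. The median standard error of the 4607 genes with means from 500 to 3000 was 0.23, and 14 of them had one at least as large as that of Ncam1, counting Ncam1 and Tubb3.

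The ratio of L1 to L2 was 4.42 for Ncam1 (95% interval 3.97 to 4.94), 4.40 for Tubb3 (3.95 to 4.91) and 11.1 for Zfp521 (6.02 to 22.9), by exact binomial intervals that cover counting error only. Such a gap was rare. Of 10977 genes with a mean of at least 50, 0.692% were at least 4-fold higher in L1 than in L2 and 0.765% at least 4-fold lower, together 1.46%. Of the 7 members at such means, 3 were higher and 0 lower by that measure, chosen after their values were seen. At means of at least 500 the gap in either direction held for 14 of 5545 genes (0.252%), Ncam1 and Tubb3 among them. Between H1 and H2, 0 of the 7 members differed 4-fold, and 0.118% of all genes at such means did. Pax6 and Dab2, with means below 50, were 21.3-fold and 4.30-fold higher in H1 than in H2, Dab2 on 2 reads in H2. The sum of the fibroblast markers was also higher in L1 than in L2, mostly through Fbn1, with 324 normalized reads in L1 and 174 in L2. Thy1 and Col3a1 were higher in L1 too, while Col1a1 (1.23 in L1, 11.1 in L2) and Col1a2 (6.16 in L1, 18.5 in L2) went the other way. The part of these markers in the gap was not tested.

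**Figure D3:**
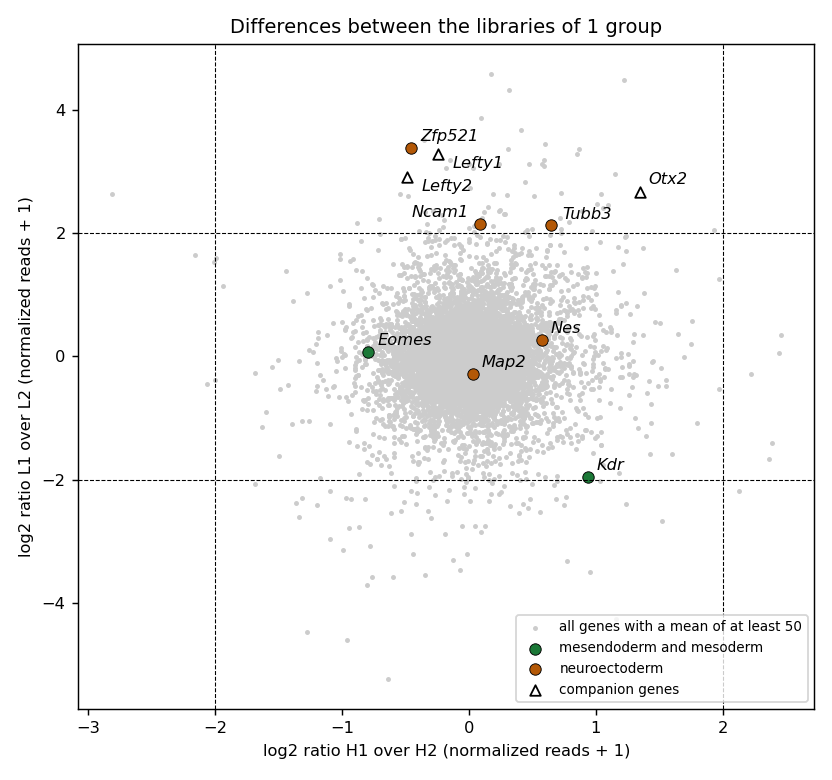
Log2 ratio of normalized reads plus 1 between the libraries of each group, H1 over H2 across and L1 over L2 up, for all genes with a mean of at least 50 in grey, members in colour and 3 companion genes as triangles. Ncam1, Tubb3 and Zfp521 lie above the upper dashed line of a 4-fold gap between L1 and L2, Kdr lies near the lower one, and Nes, Map2 and Eomes lie inside.

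Nes and Map2 did not share that gap, with ratios of L1 to L2 of 1.20 (95% interval 1.07 to 1.34) and 0.819 (0.623 to 1.07). Nes, coding for the intermediate filament nestin of neural progenitors, had 661 and 444 normalized reads in H1 and H2 and 805 and 672 in L1 and L2. The L libraries lay above the H libraries, and the authors' deposited table gives -0.41 ± 0.27 (SE) with a DESeq2 adjusted p of 0.782. Map2, a microtubule protein of dendrites, had 110 and 108 in H1 and H2 and 124 and 152 in L1 and L2, again without overlap (-0.34 ± 0.42, SE, in the authors' deposited table). Neither passed the test.

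The early neural factors Pax6 and Sox1 varied most between H1 and H2. Pax6 had 80.1 normalized reads in H1 and 3.76 in H2, from 156 and 3 reads, and 27.1 and 40.8 in L1 and L2. H1 was 21.3-fold above H2 (95% interval 7.15 to 104, exact binomial), and both L libraries fell between them. Sox1 had 27 reads in H1 and 0 in H2, with 4 in L1 and 16 in L2, a normalized 13.9, 0, 4.93 and 19.8. A count of 0 in H2 allows up to 3.76 normalized reads. The authors' deposited table gives 0.33 ± 0.99 (SE) for Pax6 and -0.78 ± 1.64 (SE) for Sox1, and a refit without H1 moved Pax6 to -3.17.

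The proneural factor Neurog2 had 4 and 3 reads in L1 and L2 and 0 in both H libraries. With the Lncenc1-high group set to a floor of 3 reads, it was 3.95-fold lower there. This ratio leaves out the counting error of the 7 reads. Its unadjusted DESeq2 p was 0.135 in the authors' deposited table. Pax3, of the dorsal neural tube, had 1, 0, 1 and 1 reads in H1, H2, L1 and L2, and Dcx, of migrating neurons, had 0, 1, 2 and 0. Of the 10 neuroectoderm members 9 had a negative fold change in the authors' deposited table, with a median of -0.60, against 53.1% negative over all genes. Of the 6 with a mean of at least 10, 5 were negative, with a median of -0.24, against 50.5% of all genes at such means. That count rested on L1: in refits without it Nes and Map2 alone of the 6 were negative. None of the 7 tested was called, by DESeq2 or by limma voom, and 0 of the 10 had an unadjusted p under 0.05 in the authors' deposited table.

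Around the members, in lists chosen with earlier results known, 2 companion genes passed the test. Of 16 genes that induce primitive endoderm or hold it back, 1 was called, Fgfr2, a receptor through which FGF4 acts on primitive endoderm precursors. Fgfr2 had 37.5 and 30.1 normalized reads in H1 and H2 and 308 and 200 in L1 and L2. Its groups were far apart, at -2.89 ± 0.44 (SE) with a DESeq2 adjusted p of 3.30e-08 in the authors' deposited table. In refits without any 1 of the 4 libraries its log2 fold change ranged from -3.17 to -2.55. Limma voom, which called 5 of 14009 genes in all, gave Fgfr2 an adjusted p of 0.149. The other 15 did not pass, though 3 of the 16 had an unadjusted DESeq2 p under 0.05, against 8.82% of tested genes. Besides Fgfr2 these were Etv4 (0.74 ± 0.32, SE, in the authors' deposited table) and Nanog (0.41 ± 0.20, SE), both opposite in sign to Fgfr2. Among the 15 were Etv5, the most abundant (0.14 ± 0.20, SE, in the authors' deposited table), the ligand Fgf4 (0.41 ± 0.23, SE) and the other receptor, Fgfr1 (-0.42 ± 0.32, SE). None of the 10 primitive endoderm members had an unadjusted DESeq2 p under 0.05 there. For 6 of them, Gata6 and Sox17 included, the mean was below 10, with standard errors of 1.85 to 3.65, too wide to decide. Of the other 4, Dab2 and Pdgfra had a negative fold change, as Fgfr2 did, and Gata4 and Hnf4a a positive one. Their standard errors, from 0.79 for Hnf4a to 1.16 for Dab2, leave these fold changes undecided too. The median over the 16 was 0.26, with 11 above 0, beside -0.01 over all tested genes.

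Of 18 tested mesendoderm signals and regulators, 1 was called, the streak factor T, at 162 and 427 normalized reads in H1 and H2 and 70.2 and 37.1 in L1 and L2. The authors' deposited table gives T 2.45 ± 0.50 (SE) with a DESeq2 adjusted p of 0.000322. It was not called in refits without H2 (adjusted p = 0.381) or without L2 (adjusted p = 0.124), nor by limma voom (adjusted p = 0.41). Thus T was higher where Lncenc1 was high, while its partner Eomes overlapped between the groups. Of the 18, 4 had an unadjusted DESeq2 p under 0.05 in the authors' deposited table, against 8.82% of tested genes: T, Cdx2, and 2 that went the other way, the WNT target Sp5 (-0.94 ± 0.29, SE) and the NODAL cofactor Foxh1 (-0.69 ± 0.26, SE), with adjusted p of 0.0666 and 0.203. The median over the 18 was 0.20. Tdgf1, the NODAL coreceptor and the most abundant of the list, had 0.23 ± 0.25 (SE) in the authors' deposited table.

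Of 13 tested genes of endoderm matrix and trafficking DESeq2 in the authors' deposited table called 0, with 1 at an unadjusted p under 0.05, and limma voom called 0. That 1 was Apoe, an apolipoprotein, also the most abundant, with 0.52 ± 0.19 (SE) by the authors' deposited table, and the median over the 13 was -0.03. Of 14 tested neuroectoderm regulators DESeq2 there called 0 too, as did limma voom, with 1 at an unadjusted p under 0.05. It was Rest, the repressor of neuronal genes, with 0.45 ± 0.21 (SE) by the authors' deposited table. Rest stood at 6732 and 5823 normalized reads in H1 and H2 and at 5279 and 3929 in L1 and L2. Rest was thus lowest in L2, the library that also held the least Tubb3 and Ncam1, and a link between these levels was not tested. Sox2, the most abundant of that list, had 0.30 ± 0.20 (SE) in the authors' deposited table, and the 14 had a median of 0.08.

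**Figure D4:**
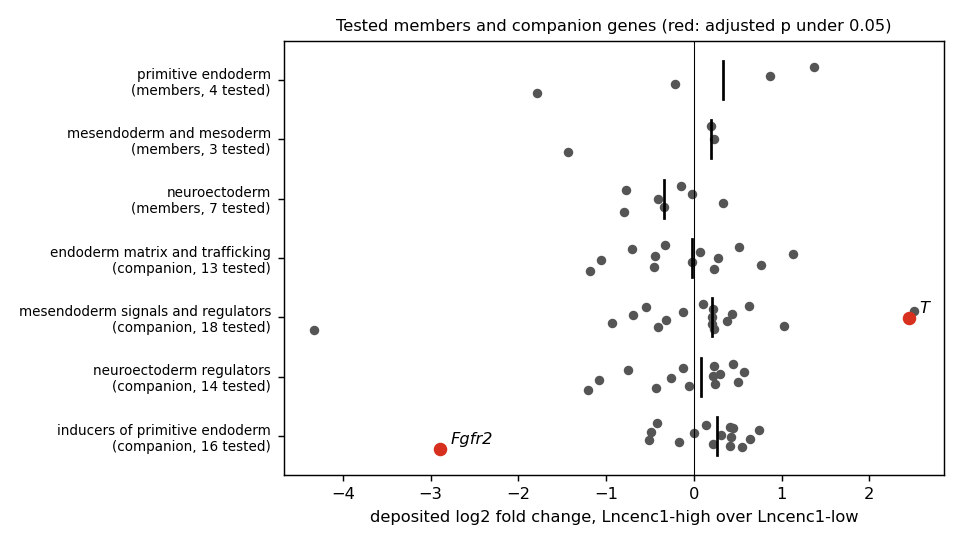
Deposited log2 fold changes of the tested genes of each member class and companion list, Lncenc1-high over Lncenc1-low, 1 point per gene, with the median as a black bar and genes at an adjusted p under 0.05 in red. Fgfr2 at -2.89 and T at 2.45 are the 2 called genes, and no member is among them.

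The gap between L1 and L2 reached 3 companion genes, named after their values were seen. The NODAL inhibitor Lefty1 had 1125 and 1331 normalized reads in H1 and H2, 1439 in L1 and 146 in L2. Its paralog Lefty2 had 2071 and 2907 in H1 and H2, 2149 in L1 and 283 in L2, so near in sequence to Lefty1 that reads may be shared between them. Otx2, a factor of anterior neural fate and of the epiblast, had 167 and 65.2 in H1 and H2, 211 in L1 and 32.1 in L2. In each of the 3 genes L2 was the lowest library, as it was for Tubb3, Ncam1 and Zfp521. Nodal itself was even, with 754 and 849 in H1 and H2 and 861 and 877 in L1 and L2.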

How the data were processed

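RNA depleted of ribosomal RNA was sequenced as strand-specific libraries in 2 groups of 2, per the labels' protocols. TopHat2, HTSeq, DESeq2 1.8.2 and the build mm9 are listed in the submitters' processing notes. No source used here gives the annotation or the strand setting. Per the file headers, the deposited table holds the authors' mean normalized read count, a signal over all libraries, a log2 fold change with its standard error, a Wald score and p-values. Since the table holds no counts per library, the authors' own DESeq2 test, at an adjusted p under 0.05, was the main one, and edgeR was not run. Members and lists were chosen with earlier results of these data known.

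Reads per library were recovered, a step added after seeing the data. A deposited mean adds up 4 whole counts weighted by 4 constants, 1 per library, and these constants were read from values that recur among low genes. Combinations matching a mean to 15 digits were listed. Among several matches, that with a refitted fold change within 0.00001 of the authors' value was kept when all others missed by 10 times more. A lone match was kept within 0.001, or where under 1 read was expected in some library. This gave 19784 of 19840 genes (99.7%), and 55 of the 56 others had means above 20000, which were not searched. The 56 hold 18.8% of the summed means. Of 14009 tested genes, 13869 gave the deposited fold change within 0.00001 when refitted at the dispersion its standard error implies. The size factors were 1.95, 0.797, 0.811 and 0.809 for H1, H2, L1 and L2. Recovery and tests were tested on simulated data.

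Recovered reads served for values per library, refits without 1 library, scaling by library totals, and limma 3.58.1 voom in R 4.3.3. Counting intervals are exact binomial at 95%. Gene symbols and transcript lengths came from GENCODE M21 by Ensembl identifier (19707 of 19840 genes named), with no coordinates, since the build differs. All 30 members were printed. Of the 4 companion lists of pathway genes, the called gene, or else that of smallest p, and that of highest mean were named. Fgf4, Fgfr1, Etv4, Nanog, Nodal, Sp5, Foxh1, Cdx2, the lowest markers of other cell types and the genes with gaps between L1 and L2 fall outside this rule. They were named after their values were seen.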

Additional observations from a re-analysis of the deposited data

How the results depend on the processing

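Counts of called members stayed at 0 in both directions under an unadjusted p under 0.05, no filter on low means and a mean of at least 10. They were also 0 by limma voom and with library totals. Of 14009 genes limma voom called 5 and the fit with library totals 221, so 0 of 14 members there does not set the members apart. With library totals 1 member, Kdr, had an unadjusted p under 0.05. Tubb3 ranged from -0.84 to 1.29 in the fits without 1 library, Ncam1 from -0.73 to 1.41, Zfp521 from -1.68 to 1.803, Pax6 from -3.17 to 1.24, Eomes from -0.25 to 0.56 and Pdgfra from -0.67 to 0.16, each changing sign. The positive values of Tubb3, Ncam1 and Zfp521 without L1 were 1.29, 1.41 and 1.803. The other 7 of 13 members kept their sign in all 4 fits, Gata4 from 0.48 to 1.40, Dab2 from -3.26 to -1.16, Hnf4a from 0.62 to 1.88, Gsc from 0.17 to 0.29, Kdr from -2.11 to -0.12, Nes from -0.73 to -0.16 and Map2 from -0.48 to -0.19. Without 1 library, on members with reads in both groups, medians ranged from -0.68 to -0.17 for primitive endoderm, from -1.19 to 0.02 for mesendoderm and mesoderm and from -0.73 to -0.06 for neuroectoderm. With the shortest transcript in place of the longest, 3 of 30 members kept their rank by level per kilobase. T ranged from 1.60 to 2.99 in the fits without 1 library. Below means of 5 and 20 lay 13 and 19 members. The edgeR test was not run. No paired analysis was possible because the table holds no column per library and recovered reads carry no replicate number. A fit that leaves 1 library in a group takes its spread from the dispersion of the full data. Depth limits the 17 members below a mean of 10, with totals of 2 to 47 reads over the 4 libraries and standard errors of 1.64 to 4.97. The 13 members above it had standard errors from 0.27 for Nes to 1.16 for Dab2, so most of their fold changes were loosely set as well.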

Other observations

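Some companion genes had the reverse pattern to Tubb3 and Ncam1, with L2 well above L1 (named after their values were seen). Krt8, a keratin of simple epithelia such as trophoblast, had 99.6 and 213 normalized reads in H1 and H2, 72.7 in L1 and 577 in L2, a ratio of L2 to L1 of 7.94 (95% counting interval 6.05 to 10.6, exact binomial). The caudal factor Cdx1 had 384 and 228 in H1 and H2, 83.8 in L1 and 449 in L2, a ratio of 5.35 (4.12 to 7.04). Wnt8a, a ligand of the streak, had 4.62 and 0 in H1 and H2, 1.23 in L1 and 95.2 in L2, where nearly all its reads lay. Kdr, described above, shared this direction. Cdx2 had 40.04 in H1, 87.8 in H2, 2.46 in L1 and 19.8 in L2, and it did not pass in the authors' deposited table, at 2.51 ± 0.90 (SE) on the log2 scale (DESeq2 adjusted p = 0.177).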
